A study of Mus musculus with 16 samples.

Results

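The genes described here are 37 type I interferon stimulated genes, taken as a fixed list of symbols, in the footpads of AIRmax and AIRmin mice. Of these, 34 were measured by a probe set of their own, out of 19938 genes measured in all. Isg15 and Gbp2 were read only by a probe set that also names other genes, and no probe set was named for Ifi44 in the annotation used, so no value is given for those 3 genes. The genes were grouped by role as transcription factors, nucleic acid sensors and a nuclease, antiviral effectors, the ISG15 and TRIM genes, the PARP and DTX3L genes, guanylate binding proteins, and other genes.

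Type I interferons are secreted when a cell senses foreign or misplaced nucleic acid. They bind a receptor made of Ifnar1 and Ifnar2, whose kinases Tyk2 and Jak1 activate STAT2, which acts with IRF9 on a promoter element, the interferon stimulated response element (ISRE), to switch on genes that block viral growth. Intraperitoneal pristane is known in other mouse strains for raising such genes in blood and peritoneal cells, through monocytes that make interferon.

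AIRmax and AIRmin are mouse lines bred for a maximal and a minimal acute inflammatory reaction, and pristane is a mineral oil that causes arthritis after intraperitoneal injection. Total RNA from footpads was hybridised to 16 Affymetrix arrays, 4 for each of AIRmax pristane (arrays 109, 110, 111 and 112), AIRmax control (105, 106, 107 and 108), AIRmin pristane (117, 118, 119 and 120) and AIRmin control (113, 114, 115 and 116). Each array was 1 mouse, and each group held 2 males and 2 females (females were arrays 111, 112, 107, 108, 119, 120, 115 and 116). Pristane mice had been injected 2 times and were sampled at day 160, control mice at day 0, so that pristane and time cannot be told apart. The labels give all mice as an outbred stock with an age of 2 to 4 months, which cannot be the age of the pristane mice at day 160. Mice of a line are thus not genetically identical.

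Values are log2 signals as deposited, with array medians between 5.435 and 5.530 and a median gene at 6.154. Signals of different genes depend on their probes and are not ranked against each other as RNA amounts. Genes of the skin and muscle of a footpad were bright on all arrays, with the keratin Krt14 at 10.38 to 12.51 and the muscle actin Acta1 at 9.99 to 12.50. In such bulk tissue, fewer cells of a type and less RNA per cell cannot be told apart. In the tests, a gene was called at an adjusted p under 0.05 in limma, with Benjamini-Hochberg adjustment over all 19938 genes. Each of the 2 pristane comparisons shares arrays with each of the 2 comparisons of lines, so the former are not independent of the latter.

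The ISRE core was looked for as GAAA, any 2 bases and GAAA, on both strands, in RefSeq promoters (GRCm38.p6) from 250 bases before to 50 bases after the gene start. A promoter was found for 25 of the 34 genes, and 10 of them (40%) held the core (Stat2, Ddx58, Ifih1, Ifit1, Ifit3, Oas3, Rsad2, Bst2, Trim30a and Gbp3), against 1079 of all 27025 promoters (3.99%). Another motif, named GAS (TTC, any 3 bases and GAA), was counted in the same promoters. It was held by 4 of the 25 (16%), those of Irf1, Ifit2, Bst2 and Ifi35, against 2582 of all promoters (9.55%). Such matches are a description of the letters only. Below, 3 windows are shown for genes whose values are given array by array, 5′ to 3′ on the gene's strand, with the core in capitals (read as TTTC, 2 bases and TTTC where it lies on the opposite strand), from Oas3 (chr5:120777705-120777754, minus strand), Stat2 (chr10:128270256-128270305, plus strand) and Ifit1 (chr19:34640784-34640833, plus strand).
Oas3: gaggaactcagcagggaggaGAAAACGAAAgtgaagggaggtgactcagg
Stat2: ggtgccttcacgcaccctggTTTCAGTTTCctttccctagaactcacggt
Ifit1: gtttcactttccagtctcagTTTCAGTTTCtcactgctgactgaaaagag
The core in capitals ended 65 bases before the start of Oas3, 212 before that of Stat2 and 75 before that of Ifit1. The Ifit1 window also holds another match to the core, in small letters, upstream of the one in capitals.

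Across the 34 genes, mice of the same group differed widely. A score was taken on each array as the mean deviation of the 34 genes from their means over all 16 arrays, on the log2 scale. In AIRmax pristane footpads the score was 0.49, -0.12, -0.09 and 0.83 on arrays 109 to 112, and in AIRmax control footpads it was -0.06, -0.32, 0.07 and 0.85 on arrays 105 to 108. In AIRmin pristane footpads it was -0.58, 0.32, -0.86 and 0.63 on arrays 117 to 120, and in AIRmin control footpads -0.56, -0.27, -0.47 and 0.15 on arrays 113 to 116. The control mouse of array 108 thus scored as high as any pristane mouse, and the score of every group overlapped that of the group it is set against. The pooled SD within groups was 0.52. The group means were 0.28 ± 0.46 in AIRmax pristane, 0.13 ± 0.50 in AIRmax control, -0.12 ± 0.71 in AIRmin pristane and -0.29 ± 0.32 in AIRmin control (SD, n = 4 each).

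The same mouse was high for nearly all of the genes. Array 112 held the highest value of its group for 31 of the 34 genes, against 31.9% of all genes, and array 108 for 32 of 34, against 31.3%. In AIRmin pristane footpads array 120 was highest for 25 genes and array 118 for the other 9, against 19.3% and 25.5% of all genes. Array 116 was highest in AIRmin control for 33 of 34, against 26.2%, the exception being Ifit2. The highest score of each group was that of a female, on the last-numbered array of the group. The other females scored -0.09 on array 111, 0.07 on array 107, -0.86 on array 119 and -0.47 on array 115. Array 119 had the lowest score of all arrays. An effect of sex or of array order on the score was not tested. The lowest value lay on array 110 for 19 genes and on array 111 for 12 in AIRmax pristane, against 23.8% and 25.2% of all genes, and on array 106 for 28 in AIRmax control, against 22.7%. It lay on array 119 for 25 in AIRmin pristane, against 32.7%, and on array 113 for 21 in AIRmin control, against 30.9%. For 33 of the 34 genes, all but Trex1, the widest range inside a group was above the largest difference between 2 group means, as was so for 92.7% of all genes. The median within-group SD was 0.58 for the 34 genes and 0.18 for all genes. The largest difference between 2 group means had a median of 0.67 for the 34 genes and 0.28 for all genes.

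**Figure D1:**
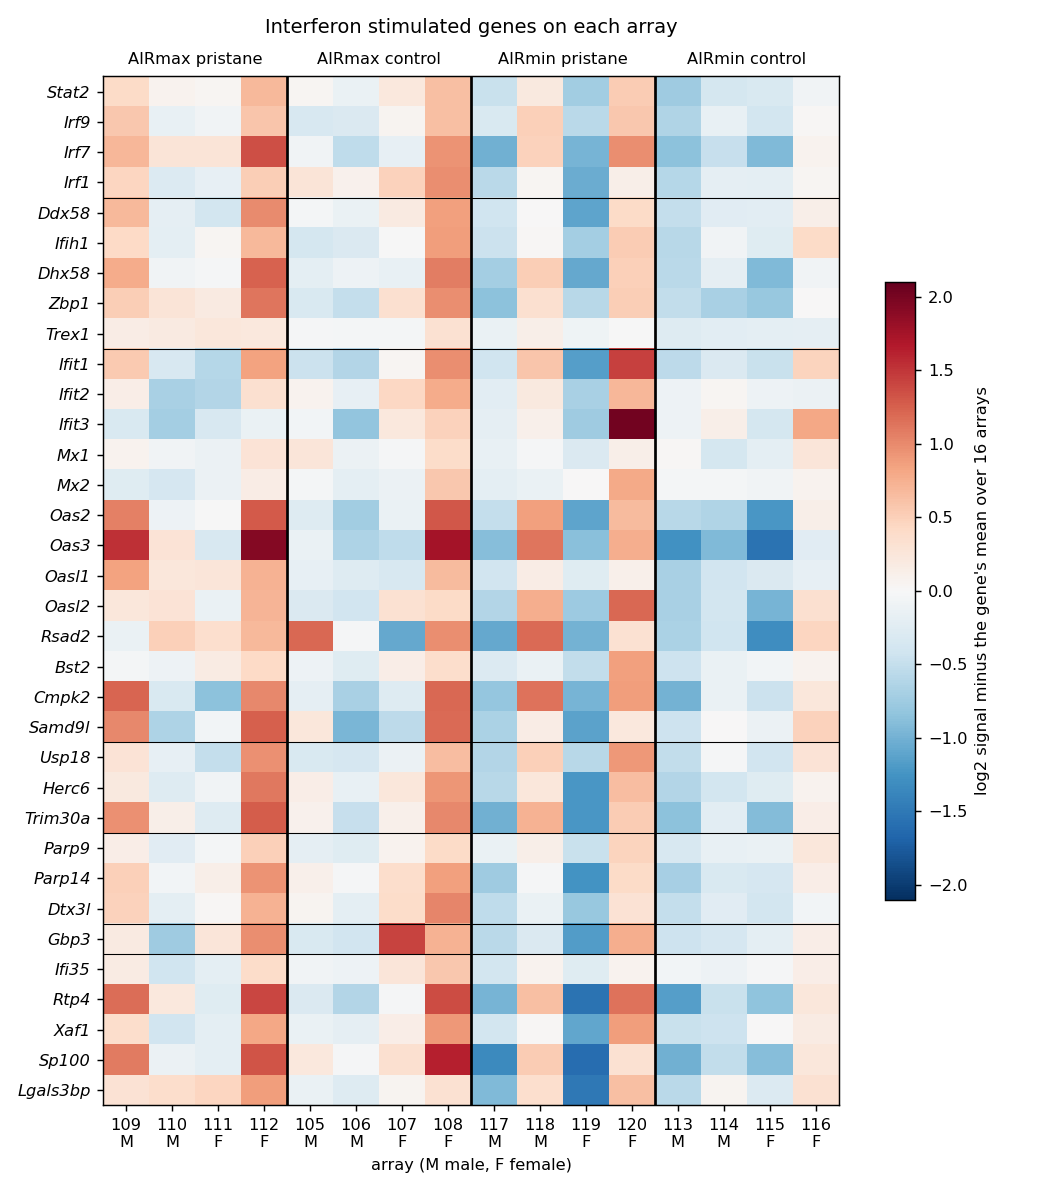
Log2 signal of each of the 34 genes (rows, by role) on each of the 16 arrays (columns, by group, with the sex of the mouse), as the difference from the gene's mean over all arrays (red higher, blue lower). Columns 112 and 108 are red for nearly every gene, and column 119 is blue for nearly every gene, although array 108 is a control mouse and array 119 a pristane mouse.

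Signal for granulocyte precursors, the bone marrow cells that become neutrophils, varied over the same arrays. The 6 of 6 genes of that list (Elane, Mpo, Prtn3, Ctsg, Ms4a3 and Fcnb) had a score of 2.29, -0.35, -0.63 and 2.23 on the AIRmax pristane arrays 109 to 112 and of 0.26, 0.01, 0.34 and 2.30 on the AIRmax control arrays 105 to 108. On the AIRmin pristane arrays 117 to 120 it was -1.25, 1.58, -1.97 and 0.38, and on the AIRmin control arrays 113 to 116 it was -1.84, -0.71, -2.52 and -0.11. None of the 6 genes was near the lowest signals of the arrays, and Elane, the neutrophil elastase gene, lay between 6.63 and 11.69. The 11 measured neutrophil genes of 12 had scores from -0.09 to 1.87 in AIRmax pristane, 0.26 to 1.80 in AIRmax control, -2.17 to 1.06 in AIRmin pristane and -2.55 to 0.11 in AIRmin control. Arrays 109, 112, 108 and 118, the 4 with the most granulocyte precursor signal, are among the 5 with the highest interferon stimulated gene score, the other being array 120. The 15 of 15 macrophage and monocyte genes were ordered otherwise, at 0.30 to 0.91 in AIRmax pristane, -0.10 to 0.16 in AIRmax control, -0.85 to -0.19 in AIRmin pristane and -0.22 to 0.08 in AIRmin control, with array 108 at 0.06.

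**Figure D2:**
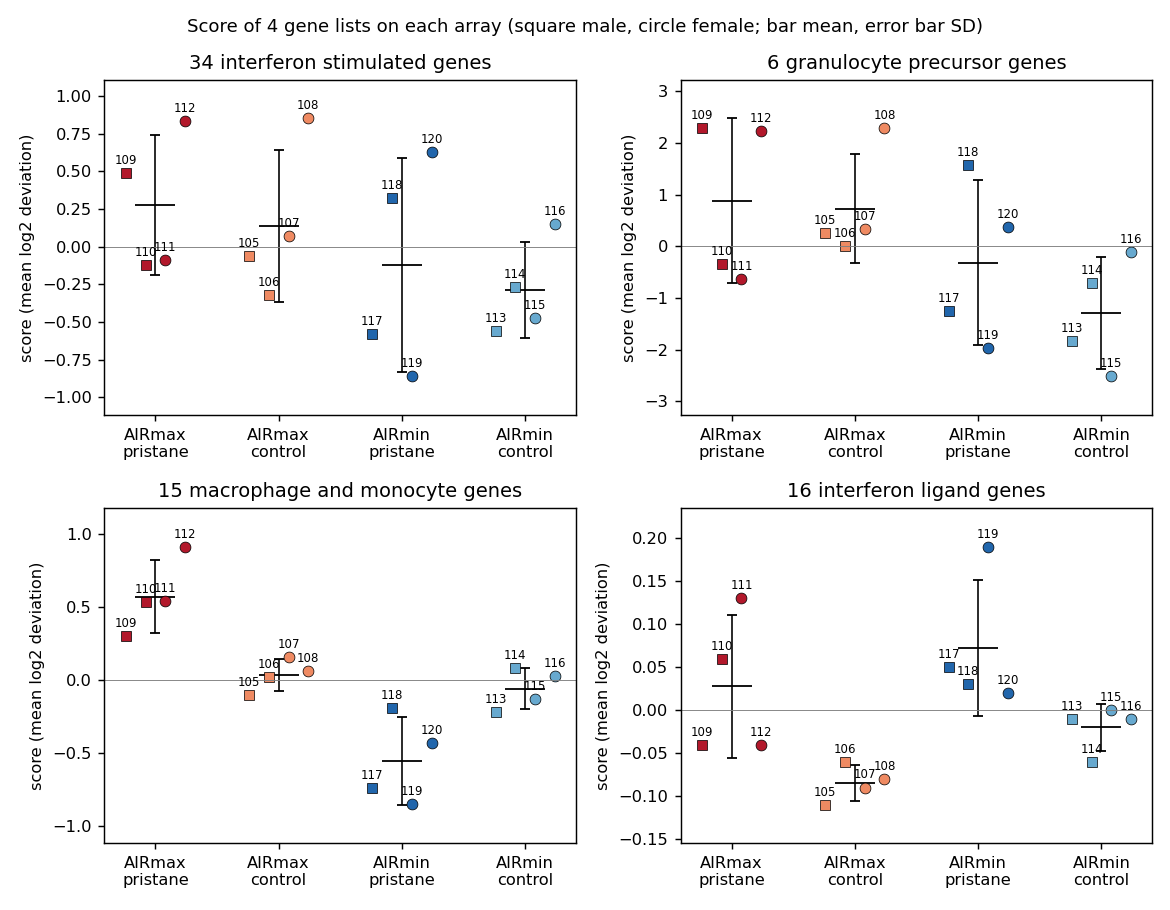
Score of 4 gene lists on each array (mean log2 deviation from the mean over 16 arrays), for AIRmax pristane, AIRmax control, AIRmin pristane and AIRmin control, with squares for males, circles for females, a bar at the group mean and the SD as error bar (n = 4). The interferon stimulated gene score and the granulocyte precursor score are both high on arrays 109, 112, 108 and 118, the macrophage score is highest in AIRmax pristane, and the interferon ligand scores all lie between -0.11 and 0.19.

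The first comparison asked whether these genes differed between pristane and control footpads of the arthritis-prone AIRmax line. None of the 34 was called, against 0.281% of all genes. At an unadjusted p under 0.05, 1 gene was higher, against 7.54% of all genes, and none was lower, against 6.9%. The median log2 difference of the 34 genes was 0.11, against 0.03 over all genes, with a range of -0.48 to 0.75 and 23 genes above 0 (55.7% of all genes were). The smallest adjusted p among them was 0.232. Leaving out 1 array at a time gave medians between -0.04 and 0.32 and no calls.

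Lgals3bp, a secreted glycoprotein that binds galectins, was the gene with the smallest p in AIRmax. It had 9.21, 9.28, 9.36 and 9.79 in AIRmax pristane mice and 8.77, 8.64, 8.97 and 9.23 in AIRmax control mice, with only array 108 of the controls reaching the lowest pristane value. The difference was 0.51 ± 0.17 (SE, limma adjusted p = 0.232). In AIRmin it had 7.99, 9.27, 7.41 and 9.54 in pristane mice and 8.35, 8.97, 8.62 and 9.23 in control mice, so that the pristane mice lay on both sides of the controls (-0.24 ± 0.43, adjusted p = 0.87). The difference between the AIRmax and AIRmin responses was 0.75 ± 0.51 (adjusted p = 0.779), the smallest p of the 34 genes in that test.

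In AIRmin, the arthritis-resistant line, none of the 34 genes was called between pristane and control footpads, and no gene on the array was (0%). None passed an unadjusted p of 0.05 in either direction, against 5.12% of all genes higher and 7.27% lower. The median was 0.16, against 0.02 over all genes, with a range of -0.34 to 1.03, 25 genes above 0 (54.7% of all genes) and a smallest adjusted p of 0.425. Only Trex1 did not overlap between the groups, against 3.19% of all genes that were higher without overlap. For the difference between the responses of the lines, none of the 34 genes was called (0.171% of all genes were) and none had an unadjusted p under 0.05, against 5.39% of all genes higher and 2.82% lower, with a median of -0.06, against 0.01 over all genes, and 11 genes above 0 (51.3% of all genes).

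The median differences were larger between the lines than between pristane and control. In pristane mice the median of AIRmax over AIRmin was 0.48, against -0.01 over all genes, and 30 of the 34 genes were above 0 (49.1% of all genes). None was called, against 1.36% of all genes, and 2 had an unadjusted p under 0.05, both higher, against 8.77% of all genes higher and 10.1% lower. These were Oasl1 and Trex1, which also were the 2 genes higher without overlap (5.04% of all genes). In control mice the median was 0.40, against -0.03 over all genes, with 32 of 34 above 0 (43.2% of all genes). None was called, against 0.0802% of all genes, while 7 had an unadjusted p under 0.05, all higher (Irf1, Stat2, Parp14, Sp100, Trex1, Dtx3l and Herc6), against 8.38% of all genes higher and 8.4% lower. Trex1 and Irf1 were higher without overlap there (5.39% of all genes).

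With all 16 arrays in 1 fit and the line difference averaged over pristane and control mice, 1 gene, Trex1, was called, and it was higher in AIRmax; 9.46% of all genes were called. At an unadjusted p under 0.05, 12 of 34 genes were higher in AIRmax and none lower, against 13.9% of all genes higher and 15.5% lower. None was higher in every AIRmax than in every AIRmin mouse, against 0.391% of all genes. They were Trex1, Oasl1, Parp14, Irf1, Dtx3l, Sp100, Stat2, Zbp1, Dhx58, Oas3, Irf7 and Trim30a. The median was 0.49, against -0.02 over all genes, and 32 genes were above 0 (45.4% of all genes), the exceptions being Ifit3 and Mx2. The count of calls turned on single arrays: no gene was called without array 112, 113, 114, 115 or 117, whereas 5 were called without array 110, 118 or 120, 3 without array 111, and 2 without array 106 or 116.

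**Figure D3:**
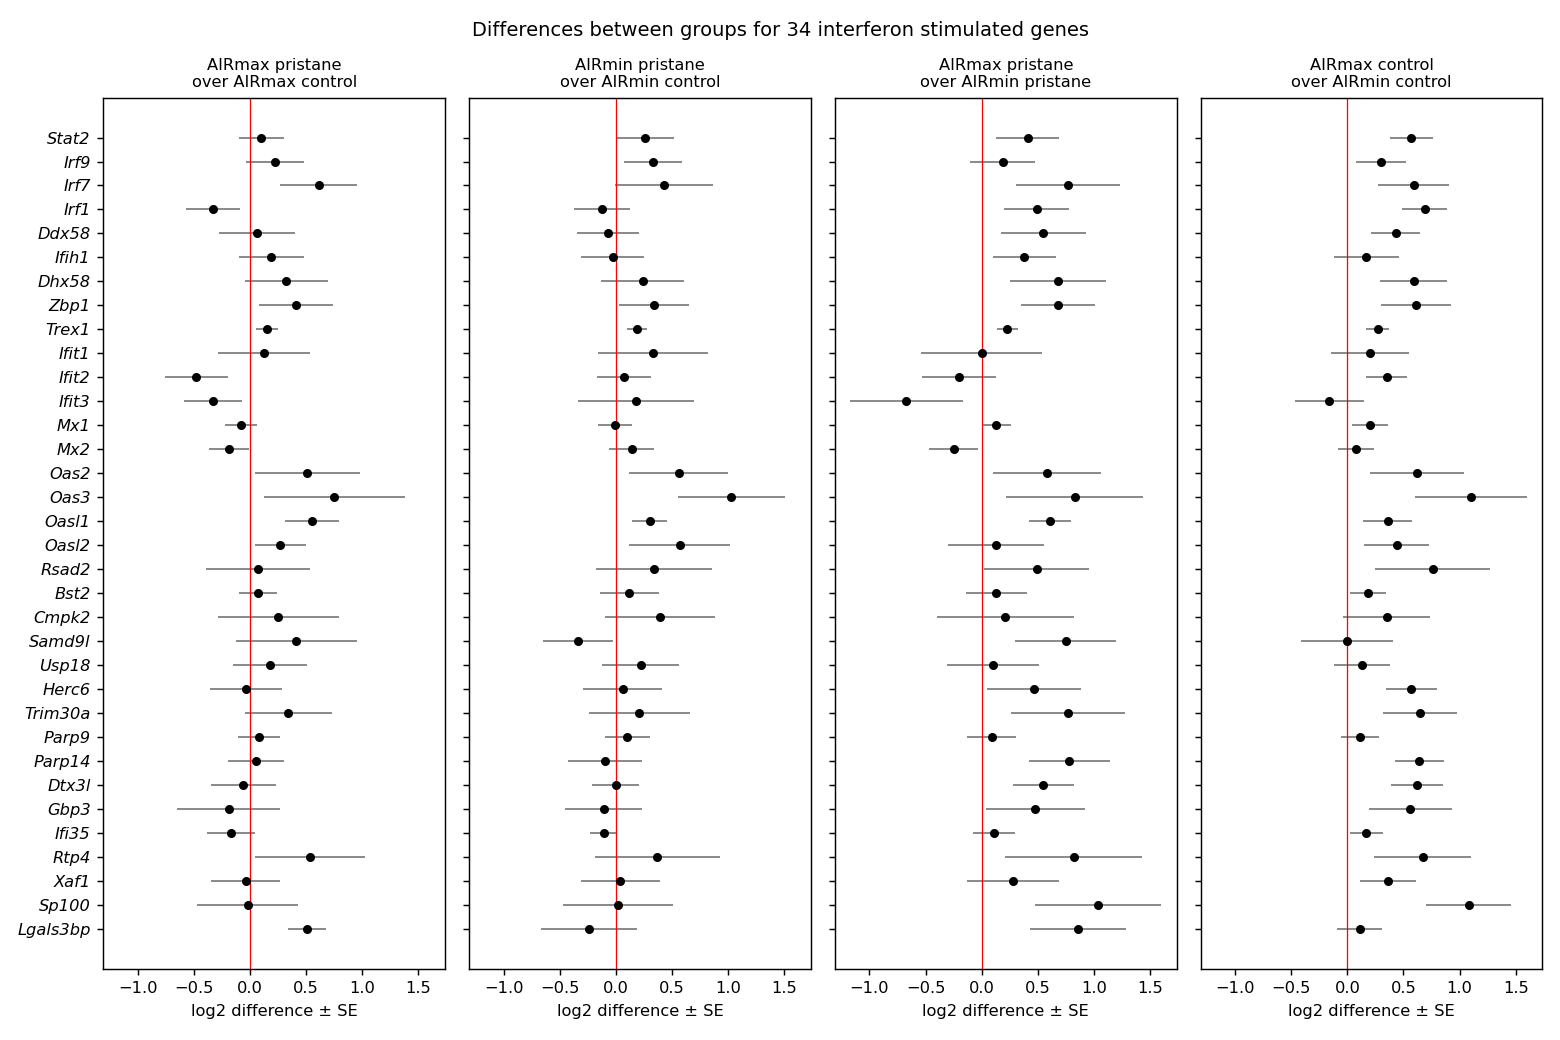
Log2 difference with its standard error from limma for each of the 34 genes (rows, by role) in 4 comparisons (panels), with a red line at no difference. Most points lie near 0 in both pristane over control panels, with medians of 0.11 and 0.16, and to the right of 0 in both AIRmax over AIRmin panels, with medians of 0.48 and 0.40.

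These differences were computed again with regard to granulocyte precursor signal, in alternatives added after the data had been seen. With the granulocyte precursor score as a covariate, the median was 0.10 in pristane mice, with 21 of 34 genes above 0, and -0.30 in control mice, with 7 above 0. In control mice that score did not overlap between the lines (0.01 to 2.30 in AIRmax, -2.52 to -0.11 in AIRmin). The fit with the covariate therefore separates line from score poorly there, and no conclusion is drawn from its sign. At an unadjusted p under 0.05, 9 of the 34 genes were lower in AIRmax and none higher in control mice with the covariate. In pristane mice 2 were lower and 1 higher. None was called in either, against 0.0301% of all genes in control and 2.98% in pristane mice. With the covariate, the averaged line difference had a median of -0.10, with 10 genes above 0. At an unadjusted p under 0.05, 6 genes were lower in AIRmax and 1 higher. In that fit the 1 call was Cmpk2, a mitochondrial nucleotide kinase, which was lower in AIRmax, with 1.35% of all genes called. Without arrays 108, 109, 112 and 118, the medians were 0.20 in pristane mice, 0.19 in control mice and 0.23 averaged. None of the 34 genes was called in these 3 comparisons, against 0.672%, 0.0953% and 3.27% of all genes. For pristane over control, the medians with the covariate were 0.06 in AIRmax and -0.18 in AIRmin, where Samd9l was called lower and 5.59% of all genes were called, and 0.00 in AIRmax and 0.02 in AIRmin without the 4 arrays. The difference between the responses of the lines changed sign, to a median of 0.19 with the covariate, with 30 of 34 genes above 0, 5 of them at an unadjusted p under 0.05 and none called (2.32% of all genes were). Without the 4 arrays its median was -0.10.

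Among the transcription factors, STAT2 and IRF9 form the complex on the ISRE, IRF7 amplifies interferon production, and IRF1 is induced mainly by interferon gamma. Stat2 had 7.57, 7.23, 7.20 and 7.84 in AIRmax pristane and 7.21, 7.02, 7.39 and 7.80 in AIRmax control, against 6.70, 7.36, 6.43 and 7.70 in AIRmin pristane and 6.41, 6.80, 6.85 and 7.08 in AIRmin control. In control mice the lines overlapped only through AIRmax array 106 and AIRmin array 116 (0.57 ± 0.19, adjusted p = 0.22). Irf7 had 8.09, 7.66, 7.66 and 8.74 in AIRmax pristane and 7.31, 6.85, 7.22 and 8.33 in AIRmax control, with all pristane mice above 3 of the 4 controls (0.61 ± 0.34, adjusted p = 0.44). It had 6.39, 7.88, 6.41 and 8.37 in AIRmin pristane and 6.53, 6.90, 6.46 and 7.46 in AIRmin control, so that 2 AIRmin pristane mice lay above all their controls and 2 below them all. Irf1 had 7.79, 7.05, 7.16 and 7.85 in AIRmax pristane, 7.61, 7.42, 7.82 and 8.31 in AIRmax control, 6.77, 7.38, 6.29 and 7.46 in AIRmin pristane and 6.74, 7.14, 7.13 and 7.38 in AIRmin control. Every AIRmax control mouse was above every AIRmin control mouse (0.69 ± 0.20, adjusted p = 0.205), while in AIRmax the pristane mean was below the control mean (-0.33 ± 0.24, adjusted p = 0.567). Irf9 ranged from 6.80 to 8.07 over the 16 arrays.

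Trex1, a nuclease that removes cytosolic DNA and in mice restrains interferon production through the DNA sensor pathway, varied least inside the groups. It had 6.57, 6.60, 6.66 and 6.64 in AIRmax pristane and 6.39, 6.37, 6.37 and 6.74 in AIRmax control, against 6.27, 6.54, 6.32 and 6.41 in AIRmin pristane and 6.14, 6.20, 6.22 and 6.23 in AIRmin control. Apart from array 108, AIRmax control mice lay below all AIRmax pristane mice, and each AIRmax group lay above the AIRmin group of the same treatment. The averaged line difference was 0.25 ± 0.06 (SE, limma adjusted p = 0.0283). Its adjusted p was 0.0535 to 0.0622 without array 112, 113, 114, 115 or 117, 0.0529 without the 4 arrays with the most granulocyte precursor signal, and 0.257 with that score as a covariate, where the difference was 0.17. Pristane over control was 0.15 ± 0.10 in AIRmax (adjusted p = 0.535) and 0.19 ± 0.09 in AIRmin (adjusted p = 0.428).

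Among the sensors, Zbp1, which binds Z-form nucleic acid, had 6.41, 6.16, 6.08 and 7.01 in AIRmax pristane, 5.57, 5.39, 6.22 and 6.86 in AIRmax control, 5.02, 6.23, 5.30 and 6.41 in AIRmin pristane and 5.37, 5.21, 5.09 and 5.90 in AIRmin control. The AIRmax pristane mice all lay above the AIRmin control mice, but in each line the pristane and control mice overlapped. In pristane mice AIRmax over AIRmin was 0.68 ± 0.33 (adjusted p = 0.309). The RNA helicase sensors Ddx58 (RIG-I) and Ifih1 (MDA5) and the related Dhx58 (LGP2) ranged from 6.32 to 8.42, from 6.06 to 7.64 and from 4.66 to 6.98. Their pristane over control differences lay between -0.07 and 0.32 in the 2 lines.

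Among the antiviral effectors, OAS3 and OAS2 make the small nucleotide that activates RNase L, which degrades viral and cellular RNA, and OASL1 in mice limits translation of Irf7. Oas3 had 7.70, 6.45, 5.83 and 8.09 in AIRmax pristane and 6.02, 5.52, 5.63 and 7.90 in AIRmax control, with the control array 108 above 3 of the pristane mice (0.75 ± 0.63, adjusted p = 0.613). In AIRmin it had 5.27, 7.28, 5.29 and 6.93 in pristane and 4.89, 5.24, 4.61 and 5.92 in control mice, where array 116 lay above 2 of the pristane mice (1.03 ± 0.48, adjusted p = 0.425). Oas2 had 6.90, 5.74, 5.83 and 7.13 in AIRmax pristane, 5.58, 5.12, 5.70 and 7.15 in AIRmax control, 5.35, 6.71, 4.73 and 6.51 in AIRmin pristane and 5.26, 5.22, 4.63 and 5.96 in AIRmin control. It was high on the arrays where Oas3 was.

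Oasl1 had 7.42, 6.82, 6.84 and 7.31 in AIRmax pristane and 6.40, 6.31, 6.24 and 7.25 in AIRmax control, and array 108 was the only control to enter the pristane range (0.55 ± 0.24, adjusted p = 0.347). In AIRmin it had 6.17, 6.74, 6.33 and 6.69 in pristane and 5.90, 6.18, 6.28 and 6.40 in control mice (0.30 ± 0.16, adjusted p = 0.489). All AIRmax pristane mice lay above all AIRmin pristane mice (0.61 ± 0.19, adjusted p = 0.125), and the averaged line difference was 0.49 ± 0.15 (adjusted p = 0.055, and 0.0385 to 0.535 over the alternatives).

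**Figure D4:**
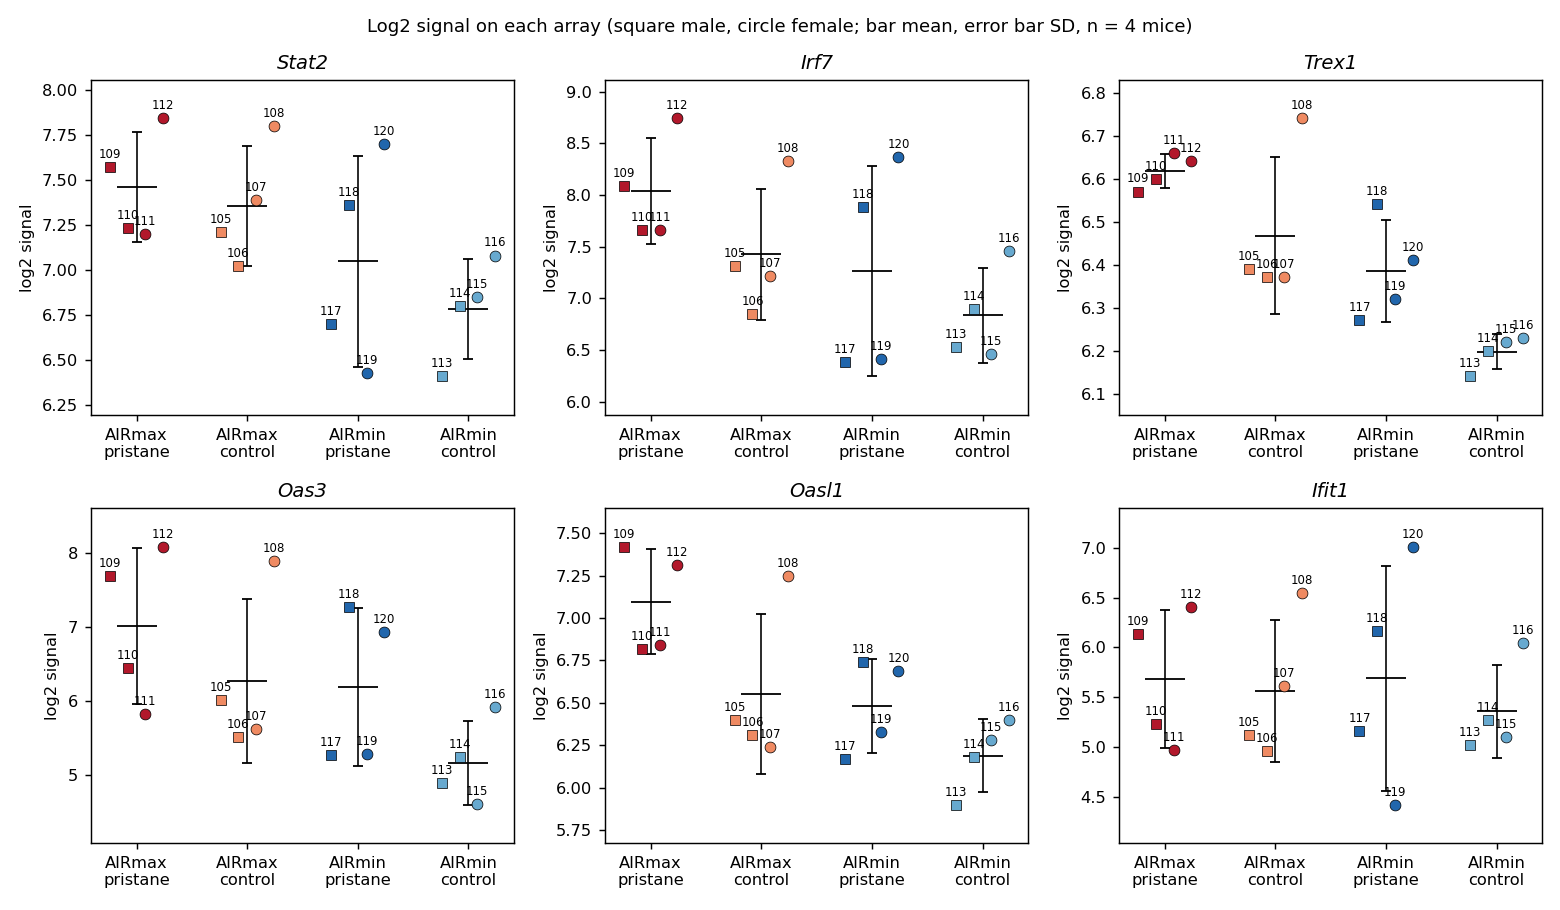
Log2 signal of Stat2, Irf7, Trex1, Oas3, Oasl1 and Ifit1 on each array, for AIRmax pristane, AIRmax control, AIRmin pristane and AIRmin control, with squares for males, circles for females, a bar at the group mean and the SD as error bar (n = 4 mice). Array 108, a control, is in or above the AIRmax pristane range for all 6 genes, and Trex1 alone has AIRmax pristane and AIRmin control mice within 0.1 of each other inside their groups.

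The genes of the IFIT proteins, which bind foreign RNA, were on average not higher in AIRmax than in AIRmin among pristane mice. Ifit1 had 6.13, 5.23, 4.97 and 6.41 in AIRmax pristane, 5.12, 4.96, 5.61 and 6.55 in AIRmax control, 5.16, 6.16, 4.42 and 7.01 in AIRmin pristane and 5.02, 5.27, 5.10 and 6.04 in AIRmin control. Its highest value was in the AIRmin line, on array 120, and AIRmax over AIRmin in pristane mice was 0.00 ± 0.54 (adjusted p = 0.998). Ifit2 had 6.00, 5.18, 5.25 and 6.20 in AIRmax pristane and 5.93, 5.68, 6.29 and 6.64 in AIRmax control, the lowest pristane over control difference of the 34 genes in AIRmax (-0.48 ± 0.28, adjusted p = 0.469). In AIRmin it had 5.63, 6.06, 5.17 and 6.55 in pristane and 5.75, 5.90, 5.75 and 5.74 in control mice, a control group with an SD of 0.08 beside 0.59 in pristane mice. Ifit3 reached 7.19 on array 120 and lay between 4.34 and 5.98 on the other 15 arrays, with AIRmax pristane at 4.79 ± 0.25 and AIRmin pristane at 5.46 ± 1.21.

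Mx1 and Mx2, GTPases that block virus particles, were dim. Mx1 had 3.69, 3.53, 3.48 and 3.89 in AIRmax pristane, 3.87, 3.48, 3.58 and 4.00 in AIRmax control, 3.46, 3.59, 3.30 and 3.74 in AIRmin pristane and 3.63, 3.24, 3.41 and 3.87 in AIRmin control. Mx2 had 3.44, 3.35, 3.58 and 3.86 in AIRmax pristane, 3.66, 3.50, 3.58 and 4.26 in AIRmax control, 3.49, 3.55, 3.71 and 4.49 in AIRmin pristane and 3.65, 3.65, 3.62 and 3.77 in AIRmin control. Their means over 16 arrays were at percentiles 14.3 and 15.2 of all genes, and no detection value is at hand to say whether either was above background. Many laboratory strains of mice carry a null allele of Mx1.

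Samd9l, a protein that restrains translation in infected cells, had 7.98, 6.33, 6.92 and 8.23 in AIRmax pristane, 7.21, 6.01, 6.43 and 8.16 in AIRmax control, 6.30, 7.13, 5.85 and 7.19 in AIRmin pristane and 6.54, 6.98, 6.85 and 7.45 in AIRmin control. Its groups overlapped throughout, and the difference between the responses of the lines was 0.75 ± 0.67 (adjusted p = 0.853). Of the other effectors, Rsad2 (viperin) ranged from 5.35 to 7.86 with its highest AIRmax value in the control array 105, Cmpk2 from 5.09 to 7.31, Oasl2 from 5.71 to 7.88, and Bst2 (tetherin, which holds budding virus on the cell) from 6.51 to 7.89, its highest value on array 120.

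Of the ISG15 system, which tags proteins with the ubiquitin-like ISG15, Usp18, the protease that removes the tag and damps the receptor, ranged from 5.79 to 7.36, and Herc6, the ligase of mice, from 4.57 to 6.89. Trim30a ranged from 6.73 to 9.23. Parp14, an ADP-ribosyltransferase, had 7.51, 6.95, 7.12 and 7.95 in AIRmax pristane and 7.11, 6.98, 7.38 and 7.87 in AIRmax control, with hardly any difference of the means (0.05 ± 0.25, adjusted p = 0.948). It had 6.26, 6.98, 5.75 and 7.41 in AIRmin pristane and 6.30, 6.69, 6.65 and 7.15 in AIRmin control. The averaged line difference was 0.71 ± 0.23 (adjusted p = 0.0587, and 0.0324 to 0.575 over the alternatives). Its neighbours in function, Parp9 and Dtx3l, which form a ubiquitin ligase, differed in this by 0.10 and 0.58. Gbp3, a guanylate binding protein, was highest at 8.22 on array 107, where the score of the 34 genes was 0.07.

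Among the remaining genes, Sp100, a component of PML nuclear bodies, had 8.13, 6.91, 6.83 and 8.36 in AIRmax pristane, 7.26, 7.01, 7.37 and 8.66 in AIRmax control, 5.70, 7.57, 5.43 and 7.36 in AIRmin pristane and 6.03, 6.52, 6.14 and 7.28 in AIRmin control. In control mice only AIRmin array 116 reached the AIRmax values (1.08 ± 0.38, adjusted p = 0.229). With the granulocyte precursor score as a covariate that difference was -0.08, in a fit that separates line from score poorly in control mice. Rtp4 ranged from 5.65 to 8.59, Xaf1 from 4.88 to 6.87 and Ifi35 from 6.65 to 7.64.

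The genes around the pathway were examined as lists of their own. Of 21 interferon ligand genes, 16 were measured, and none was called in any of the 6 comparisons. Of all genes, 9.46% were called in the averaged comparison and at most 1.36% in the others. Ifnb1, interferon beta, lay between 3.05 and 3.78 on all arrays, and the alpha genes are near copies of each other, so their probe sets may not tell them apart. Of 15 genes for receptors, kinases and their inhibitors, 14 were measured. Ifnar1 was called higher in AIRmax, averaged over treatments (0.46 ± 0.10, adjusted p = 0.012, but 0.104 with the granulocyte precursor score as a covariate and 0.0639 without the 4 arrays), and Socs3 and Ptpn6, a phosphatase, were called with it, where 9.46% of all genes were. Ptpn6 (0.83 ± 0.24, adjusted p = 0.0426) was 0.22 with the covariate (adjusted p = 0.221), and with 1 array left out it kept its call only without array 106, 110, 111, 116 or 118. Socs3, a feedback inhibitor of cytokine receptors that answers mainly to interleukin 6 and related cytokines, had 8.31, 8.45, 8.57 and 8.90 in AIRmax pristane and 6.72, 6.86, 6.87 and 6.95 in AIRmax control, against 6.97, 7.45, 6.86 and 6.81 in AIRmin pristane and 7.18, 7.27, 7.14 and 7.27 in AIRmin control. It rose in AIRmax pristane mice, all of which lay above every mouse of the other groups (1.71 ± 0.13, adjusted p = 0.00265), and the difference between the responses of the lines was 1.90 ± 0.20 (adjusted p = 0.000417). In control mice, every AIRmax value of Socs3 was below every AIRmin value, so its averaged line difference does not hold in both treatments. On these same 4 AIRmax pristane arrays, the 34 interferon stimulated genes ranged in score from -0.12 to 0.83.

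Of 18 genes of the pathway that induces interferon, 16 were measured. Tlr8, an endosomal RNA sensor, was called higher in AIRmax among pristane mice (1.25 ± 0.24, adjusted p = 0.0463, but 0.0648 to 0.155 without array 109, 111, 112, 117, 119 or 120). It also lost this call with sex as a covariate (adjusted p = 0.0608) and without the 4 arrays with the most granulocyte precursor signal (0.0538). In the averaged comparison 5 of the 16 were called, all higher in AIRmax, against 9.46% of all genes. With the granulocyte precursor score as a covariate none of the 5 was, with an adjusted p of 0.0514 for Tlr8, 0.198 for Ikbke, 0.334 for Sting1, 0.243 for Irf5 and 0.438 for Tlr7. With 1 array left out, Tlr8 and Ikbke kept their calls throughout. Sting1 lost its call without array 107, 108, 109, 112, 113, 114, 115, 117 or 119, Irf5 kept it only without array 105, 109 or 118, and Tlr7 only without array 105, 111, 118 or 120. Of 38 further interferon stimulated genes, 32 were measured, and none was called between pristane and control in either line. Ifi203 was called higher in AIRmax among pristane mice (1.29 ± 0.23, adjusted p = 0.0362, but 0.0609 to 0.128 without array 109, 111, 112, 117, 119 or 120). This call was also lost with sex as a covariate (adjusted p = 0.0583) and without the 4 arrays (0.106). In the averaged comparison Ifi203, Ifi30 and Ms4a4c were called higher in AIRmax and Ifi44l lower, 4 of 32 genes, against 9.46% of all genes. In that averaged comparison Ifi203 and Ifi30 kept their calls under all alternatives. Ms4a4c (1.29 ± 0.33, adjusted p = 0.0294) was 0.47 with the granulocyte precursor covariate (adjusted p = 0.157), and its adjusted p was 0.0755 without the 4 arrays and 0.0511 to 0.0657 without array 108, 109, 112, 113, 114, 115, 117 or 119. Ifi203 lies in a family of near copies that its probes may not separate.

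Ifi44l was the one called gene of these lists that was lower in AIRmax. It had 3.62, 3.67, 3.88 and 3.67 in AIRmax pristane and 3.40, 3.47, 3.46 and 3.63 in AIRmax control, against 4.59, 5.31, 4.12 and 5.50 in AIRmin pristane and 4.10, 5.27, 3.97 and 5.34 in AIRmin control. The AIRmax values were as dim as those of Mx1, and whether they were above background is not known. Every AIRmax mouse was below every AIRmin mouse, as for 0.356% of all genes, including arrays 112 and 108, where nearly all of the 34 genes were high (-1.18 ± 0.22 averaged over treatments, adjusted p = 0.0074, and 0.0544 without the 4 arrays with the most granulocyte precursor signal).

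Of 30 genes induced mainly by interferon gamma, 23 were measured. Between AIRmax pristane and AIRmax control mice, 5 of them had an unadjusted p under 0.05 and lower values in pristane, against 6.9% of all genes, with a list median of -0.18. They were Cxcl9, Ciita, Gbp4, Gbp8 and Gbp9, and none was called. Cxcl9, a chemokine for T cells, had 5.91, 5.04, 4.36 and 5.07 in AIRmax pristane and 6.80, 6.64, 7.64 and 6.83 in AIRmax control (-1.89 ± 0.33, adjusted p = 0.0613). The one gene of this list called in that comparison was Nos2, the inducible nitric oxide synthase, which was higher in AIRmax pristane at 6.10, 5.80, 5.70 and 6.33, against 4.81, 4.83, 4.79 and 4.67 in AIRmax control (1.21 ± 0.14, adjusted p = 0.019, but 0.0794 to 0.0984 without array 105, 106 or 107). Nos2 had 4.69, 5.03, 5.21 and 4.80 in AIRmin pristane and 5.03, 5.10, 4.70 and 4.91 in AIRmin control. In control mice its mean was thus lower in AIRmax than in AIRmin, unlike in pristane mice. In the averaged line comparison, Psmb10 (an immunoproteasome subunit), Nos2, Gbp9 and Cxcl10 were called higher in AIRmax, 4 of 23 genes, against 9.46% of all genes. None of these 4 kept its call with the granulocyte precursor covariate (adjusted p of 0.105, 0.141, 0.263 and 0.373) or without the 4 arrays (0.0659, 0.0716, 0.143 and 0.197). With 1 array left out, Gbp9 lost its call without array 109, 112, 113, 114, 115, 117 or 119, and Cxcl10 kept its call only without array 106, 111 or 118.

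Plasmacytoid dendritic cells are strong makers of type I interferon. Of 12 marker genes 10 were measured, with scores from -0.46 to -0.11 in AIRmax pristane, -0.01 to 0.25 in AIRmax control, -0.13 to 0.03 in AIRmin pristane and 0.08 to 0.23 in AIRmin control. The list holds Ly6d and Cox6a2, which skin and muscle also express. In AIRmax pristane against AIRmax control mice the scores of keratinocyte genes were -1.67 to 0.33 against -0.73 to 0.16, those of skeletal muscle genes -1.67 to -0.08 against -0.27 to 0.32, and those of B cell genes -0.98 to -0.14 against 0.22 to 1.39. Siglech, the defining surface lectin of plasmacytoid dendritic cells in mice, had 4.68, 4.51, 4.56 and 4.39 in AIRmax pristane and 5.42, 5.33, 5.21 and 5.53 in AIRmax control. It was called lower (-0.84 ± 0.10, limma adjusted p = 0.0241), against 0.281% of all genes called. In AIRmin, as in AIRmax, 8 of the 10 marker genes were lower in pristane than in control mice and 2 higher. None was called in AIRmin (smallest limma adjusted p = 0.0513). For the difference between the responses of the lines, none of the 10 was called (smallest limma adjusted p = 0.347), against 0.171% of all genes. At an unadjusted p under 0.05, 2 were lower and none higher there, against 2.82% and 5.39% of all genes. The fall is thus not shown to be particular to AIRmax. The part of any of these cells in the values of the 34 genes was not tested.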

How the data were processed

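Footpad RNA was hybridised to 16 1-colour Affymetrix Mouse Gene 1.0 ST arrays. The authors deposited normalized signals on the log2 scale, 1 for each probe set. The sample titles name RMA and the submitters' processing notes name MAS5, and versions and the annotation build are not given in the sources used here. The number of arrays limits the precision.

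The platform annotation gave the gene of each probe set. Of 35556 probe sets, 21789 named 1 gene, 1621 several and 12146 none, and only those with 1 gene were used. Of these, 21698 matched RefSeq. For the 999 genes with several probe sets the brightest on average was kept, which gave 19938 genes. The values were not transformed further. Groups came from the labels, and the study's methods state 4 biological replicates per group.

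Groups were compared in R 4.3.3 with limma 3.58.1 (lmFit, eBayes), each pair of groups on its 8 arrays, and the difference between responses and the averaged line difference on all 16 arrays, with Benjamini-Hochberg adjustment over all genes and a threshold of 0.05. The code was tested on simulated data. The study named SAM, which was not run. Given array by array are the genes called, the 4 with the smallest p in each comparison and a few anchors; for the surrounding lists, up to 4 called genes per list and comparison. Cxcl9, Siglech, Ifnb1, Ptpn6, Tlr7, Ciita, Gbp4, Gbp8 and Gbp9 fall outside this rule or were chosen after their values were seen, as were the ranges given for single genes. The genes and lists were chosen with earlier results of these data known. Alternatives were the mean of probe sets, dim genes left out, standardized arrays, quantile normalization, a trended robust prior, sex as a covariate, all arrays in 1 fit, each array left out, and, added after the data had been seen, granulocyte precursor signal as a covariate or its 4 highest arrays left out.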

Additional observations from a re-analysis of the deposited data

Results flagged for a closer look

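Each group of 4 arrays was tested for 1 array far from the other 3, for named genes and for the interferon stimulated gene score. This flagged 3 of 68 tests, each for the highest array of a single gene. Chance flags about 1 group in 20. In AIRmax control mice, Trex1 was 6.74 on array 108, with the next array at 6.39, and Oasl1 was 7.25 on the same array, with the next at 6.40. In AIRmin control mice, Ifit2 was 5.90 on array 114, with the next at 5.75 and the lowest at 5.74.

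The response to pristane differed between the lines for Socs3, by 1.90 on the log2 scale (limma adjusted p = 0.000417, and 3.3e-05 to 0.00537 over the alternatives). It also differed for Nos2, by 1.21 (adjusted p = 0.021, but 0.0502 to 0.0571 without array 105, 114, 116 or 117 and 0.0644 without the 4 arrays with the most granulocyte precursor signal).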

How the results depend on the processing

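The number of the 34 interferon stimulated genes called stayed at 0 in 4 comparisons under all alternatives, and in AIRmin pristane over control it was 1 with the granulocyte precursor score as a covariate. In the averaged line comparison 1 gene was called, against 4 with dim genes left out (23 of the 34 tested; Irf1, Oasl1, Parp14 and Trex1), 2 with standardized arrays (Oasl1 and Trex1), 0 without the 4 arrays with the most granulocyte precursor signal, and 0 to 5 with 1 array left out. With the covariate the count was 1, a different gene (Cmpk2). The median line difference was -0.30 in control mice and -0.10 averaged over treatments with that covariate, and Sp100 in control mice was -0.08. In control mice the covariate did not overlap between the lines, so line and score are poorly separated there and no conclusion is drawn from the sign. With 1 array left out, medians ranged from -0.04 to 0.32 for pristane over control in AIRmax, -0.09 to 0.37 in AIRmin, 0.20 to 0.64 for AIRmax over AIRmin in pristane mice, 0.19 to 0.56 in control mice, -0.27 to 0.21 for the difference between responses and 0.32 to 0.56 averaged. Of values for single named genes, 827 kept their direction and side of the threshold, 15 gained a call, 142 lost one and 1 changed direction. No paired analysis was possible because the array numbers are not shared between groups. Signal over background is not known here, which limits dim genes such as Mx1.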
